A study of Mus musculus with 12 samples.

Results

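Spleen type 1 conventional dendritic cells (cDC1) from mice with and without an Xcr1-Cre allele were compared on 6 Affymetrix arrays, out of 12 in the series. The members were chosen by their titles alone: 3 spleen arrays labelled Xcr1Cre+ and 3 labelled Xcr1++. All mice were naive C57BL/6 animals with loxP sites in both Cd40 alleles (CD40 fl/fl), so the controls carried the floxed gene as well. Control-labelled arrays came from Xcr1++ CD40 fl/fl mice and Cre-labelled arrays from Xcr1Cre+ CD40 fl/fl mice, which carried 1 Xcr1-Cre allele, a knock-in that drives Cre recombinase in cDC1. The cells were sorted from spleen as B220- Sirpa- XCR1+, with high MHC class II and high CD11c. The other 6 arrays held migratory cDC1 from skin-draining lymph nodes of the same genotypes, gated at intermediate CD11c. The question of the design was what steady-state cDC1 express with and without CD40.

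CD40 is a receptor of the TNF receptor family on antigen-presenting cells, and its ligand, CD40L, is shown mainly by activated CD4 T cells. Engaged CD40 recruits TRAF adaptors and opens the canonical NF-κB route and, through NIK (Map3k14) and RelB, the non-canonical route. In cDC1, which cross-present antigen to CD8 T cells, this signal is known as licensing and raises IL-12, costimulatory ligands and survival genes. Spleen cDC1 also mature in the absence of infection, with a program that includes Ccr7, Ccl22, Fscn1 and Cd274.

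The deposited intensities were on a linear scale, with array medians of 66.1 to 71.8 in spleen. Background was taken as the highest value of 3 Y-linked genes, an intensity of 22.2. Between 85.8% and 88.5% of the 19938 genes tested lay above it on each spleen array. The labels number the arrays 1 to 3 in each group, and same-numbered arrays deviated together from their group means (r = 0.729, 0.403 and 0.466 across genes). Number 1 stood apart: its arrays correlated negatively with those of the other numbers, while control 2 and Cre 3 (0.393) and control 3 and Cre 2 (0.557) correlated much as equal numbers did. Deviations within a group cancel out, so the negative values follow in part from the positive value of number 1. The summed intensity of 28 measured cDC1 identity genes was 71424 on control array 1 and 68908 on Cre array 1, against 86337 to 93260 on the other 4. Differences are therefore given for each same-numbered pair as well as for the means, as log2 of Cre over control, so that negative values are lower on Cre-labelled arrays. The labels do not say that replicates came from separate animals, so each p-value refers to the spread among these arrays alone, which may be technical. In bulk RNA, fewer cells of a type and less RNA per cell cannot be told apart.

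Cd40, the targeted gene, did not follow the labels on every array. Its intensity was 572, 525 and 309 on control-labelled arrays 1, 2 and 3, and 365, 214 and 569 on Cre-labelled arrays 1, 2 and 3. The control array 3 was lower than Cre array 1, and Cre array 3 was close to the highest control, so the groups overlapped. Per pair the log2 difference was -0.65, -1.30 and 0.88: Cd40 was lower with Cre in pairs 1 and 2 and higher in pair 3. The mean difference was -0.35 (SE 0.40, 95% interval -1.21 to 0.50, n = 3 per group), with an exact two-sided permutation p of 0.6, where 3 against 3 allows no p under 0.1. Without both replicate 3 arrays it was -0.97, and without Cre array 2 it was 0.0098. It was -0.63 without control array 3, -0.70 without Cre array 3 and -0.19 without control array 1. Where the Cd40 probes lie relative to the floxed part is not known here, so the check covers only the transcript part they read. The lymph node arrays showed the same layout, with Cd40 lower in pairs 1 (-0.58) and 2 and higher in pair 3 (1.12). Arrays are called by their labels throughout. Whether the replicate 3 samples were exchanged was not tested; an exchange would turn the sign of every pair 3 value. List medians and counts for the CD40-related, maturation and tolerance lists are given without the replicate 3 arrays as well.

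Xcr1 encodes the receptor used for sorting, and the Cre sits at its locus. Its intensity was 2827, 3508 and 3417 on control-labelled arrays and 1945, 3406 and 3387 on Cre-labelled arrays. Both number 1 arrays were the lowest of their group, Cre array 1 most of all, and the other 4 values lay close together. The pair differences were -0.54, -0.04 and -0.01 and the mean difference -0.20 (SE 0.22, n = 3 per group; exact two-sided permutation p = 0.5). Without both replicate 3 arrays the difference was -0.29, and without Cre array 1 it was 0.07. Leaving out Cre array 2 or Cre array 3 gave -0.33.

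**Figure D1:**
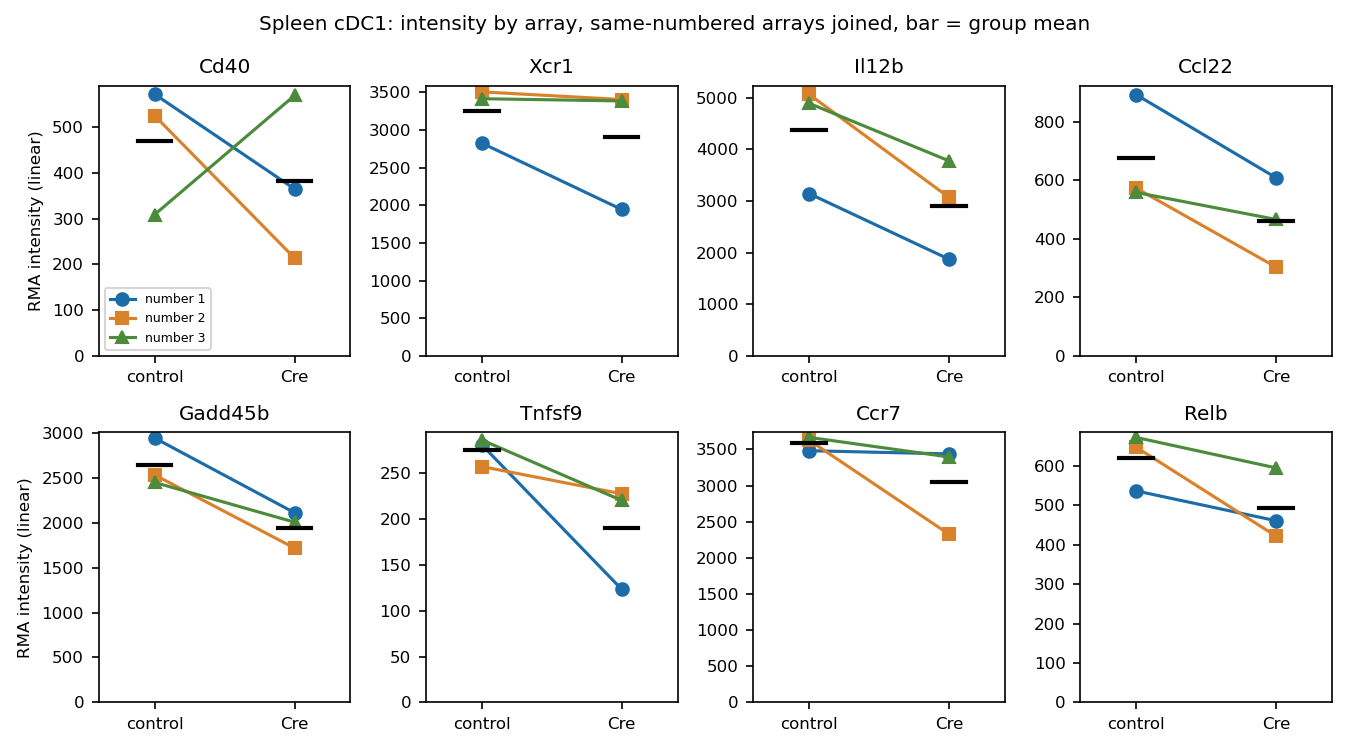
Linear RMA intensity (y axis, from 0) of 8 genes on the 3 control-labelled and 3 Cre-labelled spleen arrays; points are arrays, lines join equal replicate numbers and black bars are group means. Cd40 crosses in pair 3 (309 to 569), whereas Il12b, Ccl22, Gadd45b, Tnfsf9, Ccr7 and Relb run downward in all 3 pairs.

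No single gene passed the test. At a Benjamini-Hochberg adjusted p under 0.05 (limma, 12 arrays, 4 group means), 0 of 19938 genes were called, and the smallest adjusted p was 0.9998. The fit with the replicate number as a block also called 0 genes, with a smallest adjusted p of 0.453, which belonged to Il12b. An unadjusted p under 0.05 was reached by 357 genes, 1.79% of those tested, 216 lower (1.08%) and 141 higher (0.707%). With the block it was reached by 886 genes (4.44%), 505 lower (2.53%) and 381 higher (1.91%). Leaving out 1 array moved the count without the block by over 1.5 times in 4 cases: 624 without control array 3, 555 without Cre array 1, 208 without control array 2 and 218 without Cre array 2. Without both replicate 3 arrays it was 370, and 0 genes were called. On simulated data with these group sizes, the same fit recovered 80% of 100 genes at a log2 size of 1 and 100% of 100 genes at a log2 size of 2. The simulated noise was independent between arrays, unlike the shared deviations described above, so these rates may not hold for the real arrays. Smaller sizes were not simulated, and the mean differences in spleen ran from -0.69 to 0.96 over all genes.

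Which direction prevailed over all genes depended on the scaling. The lower share of the genes at an unadjusted p under 0.05 was 60.5% in the deposited values, 48.0% after quantile normalization and 35.6% after centring each array on its median. The groups did not overlap for 989 genes that were lower on Cre-labelled arrays (4.96% of all genes) and 535 that were higher (2.68%). After quantile normalization these counts were 882 and 768, and after median centring 672 and 1011. A gene was lower in all 3 pairs in 17.1% of cases and higher in all 3 in 12.8%. The median difference over all genes was -0.01, and 0.03 after median centring. Members of the lists below are read against these shares, and none of their genes was called.

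Il12b, which encodes the p40 subunit shared by IL-12 and IL-23, was lower on the Cre-labelled array of every pair. Its intensity was 3145, 5067 and 4892 on control-labelled arrays and 1874, 3071 and 3778 on Cre-labelled arrays. Number 1 was low in both groups, so the groups overlapped although each pair ran the same way. Cre array values were 0.596, 0.606 and 0.772 times those of the same-numbered control. The mean log2 difference was -0.61 (SE 0.27, n = 3 per group; limma unadjusted p = 0.041, with the block 2.3e-05, adjusted 0.453), and the exact two-sided permutation p was 0.2. Without both replicate 3 arrays it was -0.73, and without Cre array 1 it was -0.33. The lymph node difference was -0.14, and the test of the difference between tissues gave an unadjusted limma p of 0.24.

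The Il12b promoter, which NF-κB is known to bind, is shown because Il12b was the member with the smallest p in the blocked fit. Nfkbia, which encodes the inhibitor IκBα and is itself a standard NF-κB target, is shown beside it because its pairs also ran in 1 direction. The RefSeq sequences (GRCm38.p6) cover 250 bases upstream of the start site, chr11:44399813-44400062 on the plus strand for Il12b and chr12:55492648-55492897 on the minus strand for Nfkbia. Both strands were searched for GGGAATT, the core of a common form of the NF-κB site, chosen after these sequences were seen. The capitals mark the match, which lies on the other strand in both genes and starts at -129 in Il12b and at -26 in Nfkbia.
Il12b: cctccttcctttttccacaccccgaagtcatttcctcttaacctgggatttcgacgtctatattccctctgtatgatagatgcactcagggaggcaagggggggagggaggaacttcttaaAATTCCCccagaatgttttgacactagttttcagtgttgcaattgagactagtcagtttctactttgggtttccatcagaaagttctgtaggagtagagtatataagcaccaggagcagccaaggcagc
Nfkbia: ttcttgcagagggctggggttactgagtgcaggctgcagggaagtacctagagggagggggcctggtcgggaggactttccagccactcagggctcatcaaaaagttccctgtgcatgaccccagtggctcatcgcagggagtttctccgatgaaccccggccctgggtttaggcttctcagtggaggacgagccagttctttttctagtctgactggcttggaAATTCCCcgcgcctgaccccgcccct
Among 32851 promoter windows of the same length in the RefSeq table, 1013 (3.08%) held these letters. A match describes the letters only.

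Genes known to be induced by CD40 signals tended to lie lower on Cre-labelled arrays. Of 30 measured genes of the CD40-induced list, 10 were lower in all 3 pairs (33.3% against 17.1% of all genes) and 0 were higher in all 3 (12.8% of all genes). The groups did not overlap for 4, all lower: Cd86, Tnfsf9, Cd274 and Traf1 (13.3%, against 4.96% of all genes). An unadjusted p under 0.05 was reached by 2, Il12b and Ccl22 (against 1.08% of all genes), and with the block by 8, all lower (against 2.53%). With array weights 5 lower and 5 higher members reached it, beside 2547 lower and 1297 higher of all 19938 genes. In that fit 19 of 30 members had a difference below 0 (63.3%, against 55.5% of all genes). After median centring 2 members were separated (against 3.37%) and 0 reached that p. The median difference was -0.16, with pair medians of -0.25, -0.17 and -0.10, and -0.23 without both replicate 3 arrays, -0.05 without control array 1. Without replicate 3, 15 of 30 (50%) were lower in both remaining pairs, against 32% of all genes, and 3 higher, against 23.7%. The groups were then separated for 9 lower members (30%) and 2 higher (6.67%), against 17.7% and 8.48% of all genes. Under median centring 9 were lower in all 3 pairs, against 10.4% of all genes, and 1 higher, against 20.3%. The summed intensity of the list was 35317 to 35800 on control-labelled arrays and 28581 to 33629 on Cre-labelled arrays, without overlap. This list shares 11 genes with the maturation list below (36.7% of its measured members), among them Cd86, Cd274, Traf1, Il12b and Ccl22. Of the separated genes named above, only Tnfsf9 is not shared, so the 2 lists are not separate results.

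Among the ligands and cytokines, Tnfsf9 (4-1BBL, a costimulatory ligand for CD8 T cells) was 281, 257 and 286 on control-labelled arrays and 123, 228 and 220 on Cre-labelled arrays. Every Cre-labelled value lay below every control value, and Cre array 1 was far the lowest. The mean difference was -0.58 (SE 0.32, limma unadjusted p = 0.096), and -0.29 without Cre array 1. Cd70, the CD27 ligand of licensed dendritic cells, was 130, 75.7 and 87.3 on control-labelled arrays and 91.1, 104 and 73.7 on Cre-labelled arrays, with pairs in both directions (-0.51, 0.46 and -0.24). The difference of Il15, a survival cytokine for CD8 T and NK cells, was 0.19 (SE 0.22) and came from pair 2 alone (0.67). Il15ra, which presents IL-15 to neighbouring cells, differed by -0.26 (SE 0.18), with pairs at -0.41, -0.35 and -0.02. Tnf, which encodes the inflammatory cytokine, was 568, 636 and 820 on control-labelled arrays against 404, 654 and 535 on Cre-labelled arrays. It was lower in pairs 1 and 3 and level in pair 2 (0.04).

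Costimulatory and adhesion molecules on the cell surface gave small differences. Cd86, a ligand of CD28 and CTLA-4, was 7386, 7360 and 6844 on control-labelled arrays and 5887, 6535 and 6732 on Cre-labelled arrays, a complete separation with a mean difference of only -0.17 (SE 0.15). Its pair 3 was nearly level, at -0.02. Cd80, the other such ligand, was 3107, 3373 and 2924 against 2412, 2554 and 3016, lower in pairs 1 and 2 and level in pair 3 (0.04). Cd83, a surface marker of mature dendritic cells, was 1705, 1396 and 1726 against 1191, 1448 and 1469, with a mean difference of -0.23 (SE 0.18). Icam1, the adhesion ligand of LFA-1, differed by -0.30, -0.17 and -0.29 in the 3 pairs, and its groups overlapped. Bcl2l1, which encodes the survival protein Bcl-xL, differed by -0.22 (SE 0.27), with pair 3 at -0.01.

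The maturation list had the lowest median of the 27 lists. Of its 41 measured members, 20 were lower in all 3 pairs (48.8%, against 17.1% of all genes) and 0 higher in all 3 (against 12.8%). For 11 members (26.8%, against 4.96% of all genes) the groups did not overlap, all 11 being lower on Cre-labelled arrays. An unadjusted p under 0.05 was reached by 5 members, all lower (against 1.08% of all genes): Ccl22, Il12b, Marcksl1, Aldh1a2 and Gadd45b. With the block it was reached by 15, all lower (against 2.53%). With array weights 10 lower members and 1 higher reached it, beside 2547 lower and 1297 higher of all 19938 genes. The median difference was -0.26 against -0.01 for all genes, and the pair medians were -0.22, -0.41 and -0.07, so pair 3 was the smallest. The mean was below 0 for 39 of 41 members, against 54.1% of all genes, and the members lower in pairs 1, 2 and 3 numbered 31, 38 and 29, against 52.4%, 55.9% and 50.2% of all genes. The median shrank to -0.18 without Cre array 2 and to -0.16 without both replicate 2 arrays. Without both replicate 3 arrays it was -0.33. In those 4 arrays, 29 of 41 members (70.7%) were lower in both pairs, against 32% of all genes, and 1 was higher in both, against 23.7%. The groups of those 4 arrays were separated for 23 members, all lower (17.7% of all genes lower and 8.48% higher). After median centring the median was -0.22, with 18 members lower in all 3 pairs (10.4% of all genes) and 8 separated, all lower (3.37% of all genes lower and 5.07% higher). The summed intensity was 45168 to 49078 on control-labelled arrays and 38253 to 44597 on Cre-labelled arrays. Cd40 is in neither of these 2 lists.

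**Figure D2:**
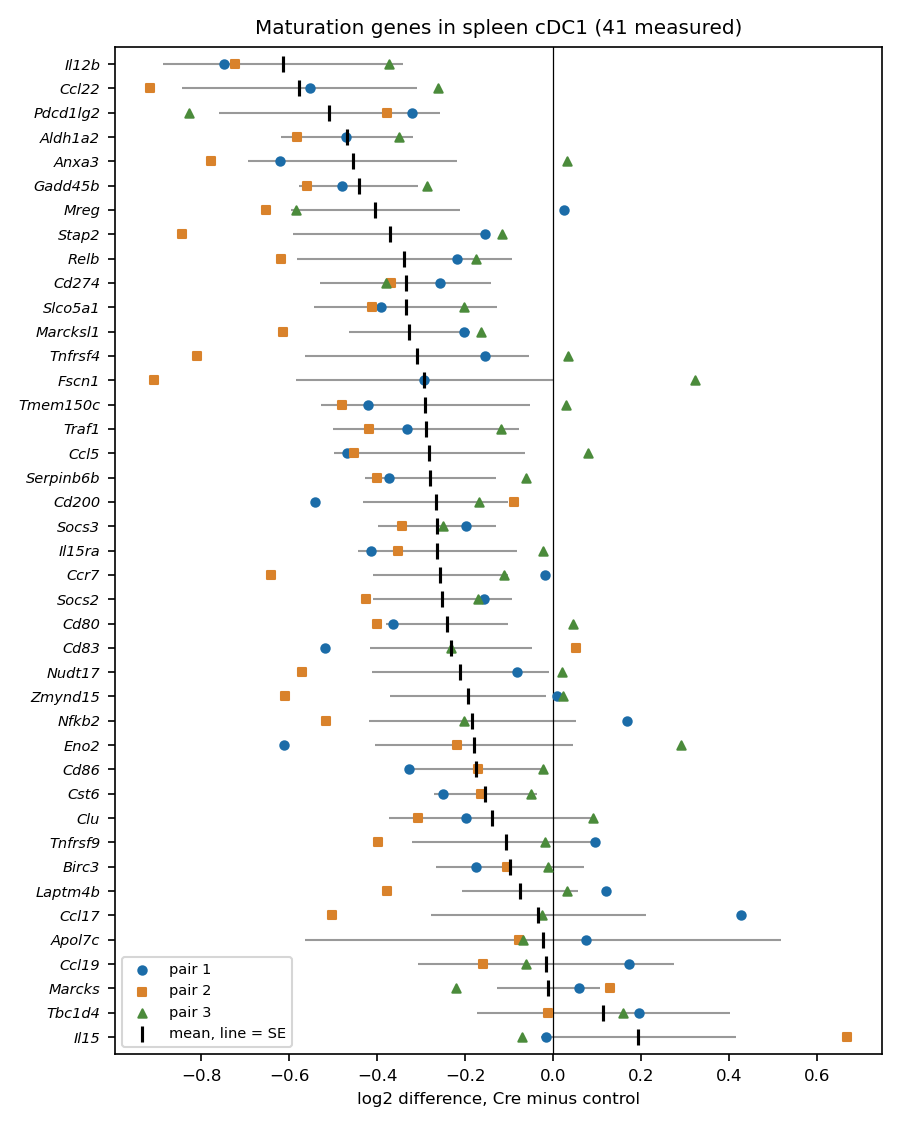
Log2 difference, Cre minus control (x axis), for each of the 41 measured maturation genes (rows, ordered by mean); coloured points are the 3 same-numbered pairs, black ticks the means and grey lines the limma SE. Most pair 1 and pair 2 points lie left of 0, pair 3 points lie closer to it, and Il15 and Tbc1d4 are the 2 genes with a mean above 0.

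Chemokines and migration genes of the maturation program were led by Ccl22, a ligand of CCR4 that draws regulatory T cells. Ccl22 was 892, 573 and 558 on control-labelled arrays and 608, 303 and 466 on Cre-labelled arrays. It was lower in every pair (-0.55, -0.92 and -0.26), while the high level of both number 1 arrays made the groups overlap. The mean difference was -0.58 (SE 0.27, limma unadjusted p = 0.05), -0.73 without both replicate 3 arrays, -0.31 without Cre array 2 and -0.36 without control array 1. Ccl17, the other CCR4 ligand, had a mean difference of -0.03 (SE 0.25), with pairs at 0.43, -0.50 and -0.02. Ccr7, the receptor that guides mature dendritic cells to T cell zones, was 3483, 3630 and 3668 on control-labelled arrays and 3439, 2329 and 3397 on Cre-labelled arrays. Its groups did not overlap, but the pair 1 difference was -0.02 and the mean of -0.26 (SE 0.15) was -0.07 without Cre array 2. Fscn1, which bundles actin in the processes of mature dendritic cells, was lower in pairs 1 and 2 (-0.29 and -0.91) and higher in pair 3 (0.32).

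Gadd45b, a stress-response gene downstream of NF-κB, was 2943, 2532 and 2449 on control-labelled arrays and 2111, 1718 and 2006 on Cre-labelled arrays. Its groups were separate and each pair was lower (-0.48, -0.56 and -0.29), with a mean of -0.44 (SE 0.14, limma unadjusted p = 0.0058). Aldh1a2, the retinal dehydrogenase that makes retinoic acid, was 84.5, 77.6 and 81.1 on control-labelled arrays and 61.0, 51.8 and 63.6 on Cre-labelled arrays. All 3 Cre-labelled values were below the lowest control value, and the mean difference was -0.47 (SE 0.15, limma unadjusted p = 0.0078). Marcksl1, a membrane-associated regulator of actin, was 2725, 2725 and 2291 against 2368, 1779 and 2044, with a mean difference of -0.33 (SE 0.14, limma unadjusted p = 0.033). Its groups overlapped because control array 3 was below Cre array 1. Apol7c, an apolipoprotein L gene of maturing cDC1, was not separated by genotype: both number 1 arrays were near 1110 to 1170 and the other 4 between 3629 and 3919.

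The signalling chain from CD40 to NF-κB showed small differences. Of 26 measured genes of the CD40 pathway list, which holds Cd40 itself, 9 were lower in all 3 pairs (34.6%, against 17.1%) and 0 higher in all 3. The groups did not overlap for 2, Traf1 and Map3k14, both lower (7.69%, against 4.96%). None reached an unadjusted p under 0.05, and with the block 2 did, Traf1 and Relb, both lower (against 2.53% of all genes). The list's median was -0.07, with pair medians of -0.04, -0.11 and -0.06. It was -0.05 without both replicate 3 arrays, and leaving out a single array moved it to 0.0056 (Cre array 1), -0.0037 (control array 3), -0.17 (control array 1), -0.11 (Cre array 2) or -0.12 (Cre array 3). Without replicate 3, 11 of 26 (42.3%) were lower in both pairs, against 32% of all genes. The groups were then separated for 5, all lower (19.2%, against 17.7% of all genes). Under median centring 6 were lower in all 3 pairs, against 10.4% of all genes.

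Map3k14, which encodes the kinase NIK of the non-canonical route, was 894, 738 and 702 on control-labelled arrays and 648, 495 and 635 on Cre-labelled arrays. Every Cre-labelled value was below the lowest control value, with pairs at -0.46, -0.58 and -0.15 and a mean of -0.40 (SE 0.24). Relb, the NF-κB subunit activated through that route, was 536, 647 and 672 against 461, 422 and 595. It was lower in each pair (-0.22, -0.62 and -0.18), and the groups overlapped. Nfkb2, the precursor partner of RelB, was higher in pair 1 (0.17) and lower in pairs 2 and 3 (-0.52 and -0.20). Traf1, an adaptor induced by NF-κB, was 1395, 1482 and 1471 on control-labelled arrays and 1108, 1109 and 1356 on Cre-labelled arrays, with a mean difference of -0.29 (SE 0.21). Nfkbia, whose promoter is printed above, was 2774, 2566 and 2463 against 2657, 1878 and 2135, with a mean of -0.24 (SE 0.14). Traf2, Traf5 and Traf6, which encode other TRAF adaptors, differed by 0.02, 0.09 and -0.01, with SEs of 0.21 to 0.31. The canonical subunits Rel and Rela differed by -0.04 and -0.15, and the A20 gene Tnfaip3 by 0.01. Cd40lg, which encodes the ligand and is a T cell gene, was 29.4 to 32.3 on all 6 arrays, just above background.

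Inhibitory and tolerance genes went in both directions. Of 26 measured members, 9 were lower in all 3 pairs (34.6%, against 17.1%) and 4 higher in all 3 (15.4%, against 12.8%). The groups did not overlap for 5 that were lower, Cd274, Pdcd1lg2, Lag3, Aldh1a2 and Socs3 (19.2%, against 4.96% of all genes), and 1 that was higher, Tgfb3 (3.85%, against 2.68%). The list's median was -0.06, with pair medians of -0.11, 0.01 and -0.08. It was -0.07 without both replicate 3 arrays and -0.12 without Cre array 3 alone, -0.10 without Cre array 2 alone and -0.02 after median centring. Of the 9, 6 are also maturation members (Cd274, Pdcd1lg2, Cd200, Aldh1a2, Socs2 and Socs3). Without replicate 3, 11 members were lower in both pairs (42.3%, against 32%) and 7 higher (26.9%, against 23.7%). The groups were then separated for 9 lower members (34.6%, against 17.7%) and 5 higher (19.2%, against 8.48%).

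Lag3, best known as an inhibitory receptor of T cells that binds MHC class II, was 135, 129 and 144 on control-labelled arrays and 100.3, 102 and 109 on Cre-labelled arrays. No value overlapped and the pairs were close to each other (-0.43, -0.33 and -0.41), with a mean of -0.39 (SE 0.11, limma unadjusted p = 0.0038). Cd274, which encodes PD-L1, was 602, 586 and 759 against 503, 454 and 583, below the controls on every Cre-labelled array by a narrow margin. Its mean difference was -0.34 (SE 0.19). Pdcd1lg2, which encodes PD-L2, was 77.3, 74.8 and 124 against 61.9, 57.6 and 69.7, so that control array 3 stood high and pair 3 gave the largest difference (-0.83). The mean of -0.51 was -0.27 without control array 3. Socs3, a feedback inhibitor of cytokine signalling, was 212, 236 and 224 against 185, 186 and 188, with a mean of -0.26 (SE 0.13). Its other probe set differed in size, and the mean over both was -0.16. Tgfb3, a TGF-β family cytokine, was 65.8, 64.9 and 68.0 on control-labelled arrays and 89.4, 70.8 and 79.7 on Cre-labelled arrays, higher in each pair (0.44, 0.12 and 0.23). Ido1, the tryptophan-degrading enzyme, was higher by 0.46, 0.27 and 0.03 in the 3 pairs, and its groups overlapped.

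**Figure D3:**
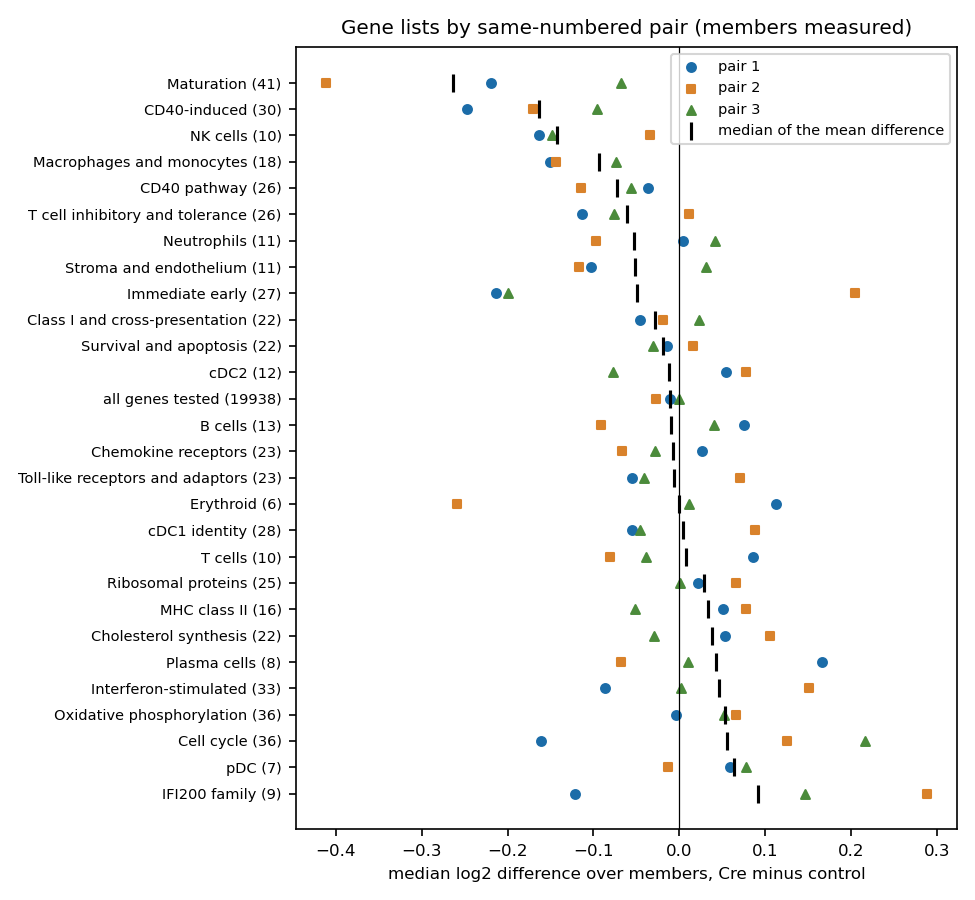
Median log2 difference over list members, Cre minus control (x axis), for 27 gene lists and for all genes tested (rows, with the number of members measured); coloured points are the 3 same-numbered pairs and black ticks the median of the mean difference. Maturation (-0.26) and CD40-induced (-0.16) lie lowest with all 3 pairs below 0, while cell cycle and immediate early genes have pairs on both sides of 0.

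Genes that define cDC1 went in both directions. Of 28 measured identity genes, 5 were lower in all 3 pairs (17.9%, against 17.1%) and 3 higher (10.7%, against 12.8%), and the median was 0.00, or 0.03 without both replicate 3 arrays. The pair medians were -0.06, 0.09 and -0.05, with 20, 7 and 20 members lower. Leaving out control array 1 gave a median of -0.11, and leaving out Cre array 1 gave 0.18. The groups were separated for 2, Cadm1 and Zbtb46, both lower (7.14%, against 4.96%). Clec9a, the receptor for dead cells, was 3911, 4935 and 5363 on control-labelled arrays and 3636, 5562 and 5374 on Cre-labelled arrays, with pairs on both sides of 0. Irf8, the lineage-defining transcription factor, was 3611, 5012 and 5289 against 4225, 5870 and 5431, with a mean difference of 0.16 (SE 0.17). Batf3, its partner in the lineage, was 1804, 1423 and 1856 against 1946, 1643 and 1704, a mean difference of 0.06 (SE 0.14). The levels of Clec9a, Irf8, Batf3 and Xcr1 were far above background on every spleen array, as the label cDC1 requires. The MHC class II list (16 measured) had a median of 0.03, and the class I and cross-presentation list (22 measured) a median of -0.03.

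Innate sensing and interferon lists stayed near the median of all genes. The 23 measured genes of the Toll-like receptor list had a median of -0.01. Of these, 4 were lower in all 3 pairs (17.4%, against 17.1% of all genes) and 3 higher (13.0%, against 12.8%). The groups did not overlap for 2 lower members (8.70%, against 4.96% of all genes) and 1 higher (4.35%, against 2.68%). Tlr9, the endosomal DNA sensor, was 642, 660 and 672 on control-labelled arrays and 918, 838 and 718 on Cre-labelled arrays. All Cre-labelled values were above the controls, and the pair differences were 0.52, 0.34 and 0.10 with a mean of 0.32 (SE 0.15, limma unadjusted p = 0.053). Tlr3, the double-stranded RNA sensor typical of cDC1, was 1705, 1710 and 2451 against 1653, 3145 and 2286, with a single large pair difference (0.88 in pair 2). The 33 measured interferon-stimulated genes had a median of 0.05, with pair medians of -0.09, 0.15 and 0.00. In all 3 pairs 4 were lower (12.1%, against 17.1% of all genes) and 7 higher (21.2%, against 12.8%).

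Immediate early and cell cycle genes ran in different directions in different pairs. The 27 measured immediate early genes had pair medians of -0.21, 0.20 and -0.20. The heat shock gene Hspa1a was 800.2, 1269 and 3244 on control-labelled arrays and 2492, 3110 and 3139 on Cre-labelled arrays. Control array 3 was as high as the Cre-labelled arrays, so pairs 1 and 2 differed by 1.64 and 1.29 and pair 3 by -0.05. The 36 measured cell cycle genes had pair medians of -0.16, 0.13 and 0.22. Hspa1a marks handling stress of sorted cells among other things, and its part in the other differences was not tested.

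The genes with the smallest unadjusted p among those with separated groups were 10 in each direction. Of the lower ones, Rcan1, an inhibitor of calcineurin that is itself switched on by calcineurin and NFAT, was 469, 358 and 332 on control-labelled arrays and 257, 289 and 255 on Cre-labelled arrays. All Cre-labelled values were below the controls, and the mean difference was -0.52 (SE 0.15, limma unadjusted p = 0.0039). Slc41a1, a magnesium transporter, was 3352, 3690 and 3088 against 2465, 2390 and 2557, lower by 0.44, 0.63 and 0.27 in the 3 pairs. Ticam2, which encodes the adaptor TRAM of the TLR4 route, was 106, 102 and 83.6 against 75.3, 72.5 and 71.0. Its mean difference was -0.41 (SE 0.11, limma unadjusted p = 0.0028). The other lower genes were 4933405O20Rik, Sult2b1 (a sulfotransferase for cholesterol), Kctd7, Gm9997, Gm10787, Cd248 (endosialin, a stromal protein) and Lag3, with means between -0.47 and -0.31.

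Of the genes that were higher, Ifi203, an interferon-inducible gene of the IFI200 family, was 149, 138 and 190 on control-labelled arrays and 337, 238 and 224 on Cre-labelled arrays. The pairs differed by 1.17, 0.79 and 0.24, and the mean was 0.73 (SE 0.19, limma unadjusted p = 0.002). This family has near-identical neighbours, so the gene behind the probe set is uncertain. The 9 measured IFI200 genes had pair medians of -0.12, 0.29 and 0.15. Cd226, an activating receptor for CD155, was 56.5, 52.3 and 66.0 against 92.2, 96.8 and 71.9, with a mean of 0.57 (SE 0.15, limma unadjusted p = 0.0023). Dpep2, a dipeptidase that acts on leukotrienes, was 220.1, 153 and 188 against 325, 257 and 250.3, higher by 0.56, 0.75 and 0.42. F630028O10Rik, a gene named by its clone, was 80.4, 69.0 and 102 against 113, 144 and 124, the smallest p of all 20 (mean 0.61, SE 0.13, limma unadjusted p = 0.00053). The remaining higher genes were Abcd2 (a peroxisomal fatty acid transporter), Agmo (an ether lipid oxygenase), St3gal6 (a sialyltransferase), Cenpi (a kinetochore protein), Arv1 (a sterol homeostasis protein) and Shcbp1. Their means lay between 0.29 and 0.51. These 20 genes were picked for separated groups, so the separation itself is a description.

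**Figure D4:**
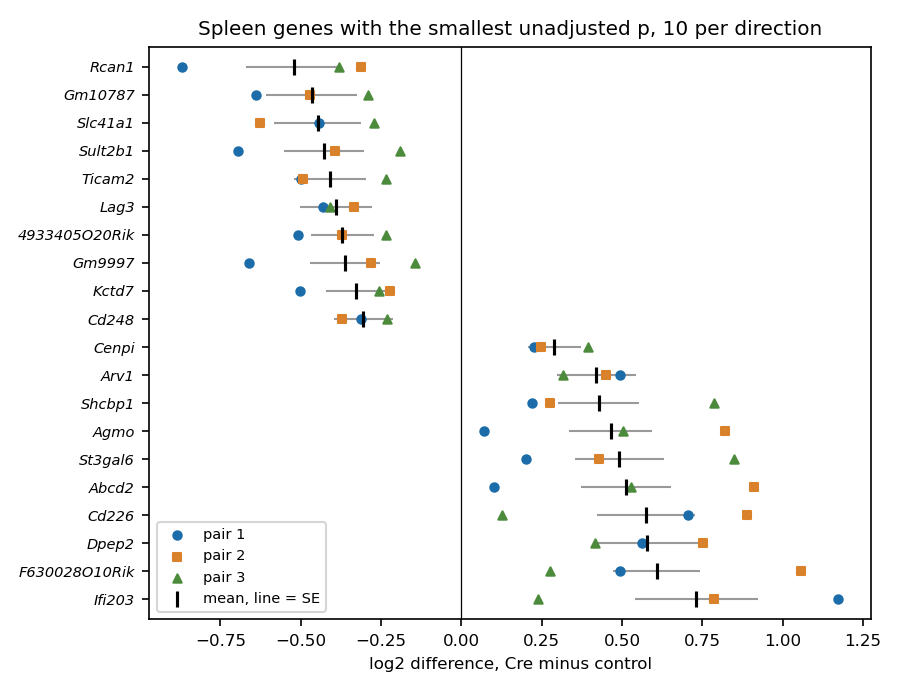
Log2 difference, Cre minus control (x axis), for the 20 genes with separated spleen groups and the smallest unadjusted p (rows, 10 per direction); coloured points are the 3 pairs, black ticks the means and grey lines the limma SE. The genes were selected on these values; pair 3 is the point nearest 0 in most rows, as in Ifi203 (0.24 against 1.17 and 0.79).

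Markers of other cells were measured for the same arrays. Of 18 measured macrophage and monocyte markers, 7 were lower in all 3 pairs (38.9%, against 17.1%) and 1 higher, with a median of -0.09 and pair medians of -0.15, -0.14 and -0.07. Without replicate 3, 11 were lower in both pairs (61.1%, against 32%). An unadjusted p under 0.05 was reached by 4 that were lower, Spic, Hmox1, Vcam1 and C1qc (against 1.08% of all genes), and by 1 that was higher, Ccr2 (against 0.707%). After median centring 0 lower markers and 1 higher reached it. The summed intensity was 5423 to 6910 on control-labelled arrays and 5413 to 7069 on Cre-labelled arrays, which overlapped fully. None of the 18 was at background on all arrays. Spic, the transcription factor of red pulp macrophages, was 201, 143 and 348 on control-labelled arrays and 159, 114 and 165 on Cre-labelled arrays, and Hmox1, the haem-degrading enzyme, was 473, 397 and 838 against 336, 307 and 489. Control array 3 was the highest for both genes, and without it their mean differences of -0.58 and -0.55 were -0.23 each. Ccr2, the monocyte chemokine receptor, was 118, 95.4 and 168 against 161, 243 and 150.1. The 13 measured B cell genes summed to 1078 to 1667 on control-labelled arrays and 1333 to 1529 on Cre-labelled arrays. An unadjusted p under 0.05 was reached by 2 of the 13, both higher (against 0.707% of all genes). They were Ebf1, at 22.2 to 24.8 against 25.3 to 28.8 and so close to background, and Cd22, at 98.1 to 124 against 114 to 155. The 10 measured NK cell genes had a median of -0.14, and the plasma cell, T cell, cDC2, pDC, neutrophil, erythroid and stromal lists had medians between -0.05 and 0.06. The part of these cells in the maturation values was not tested.

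**Figure D5:**
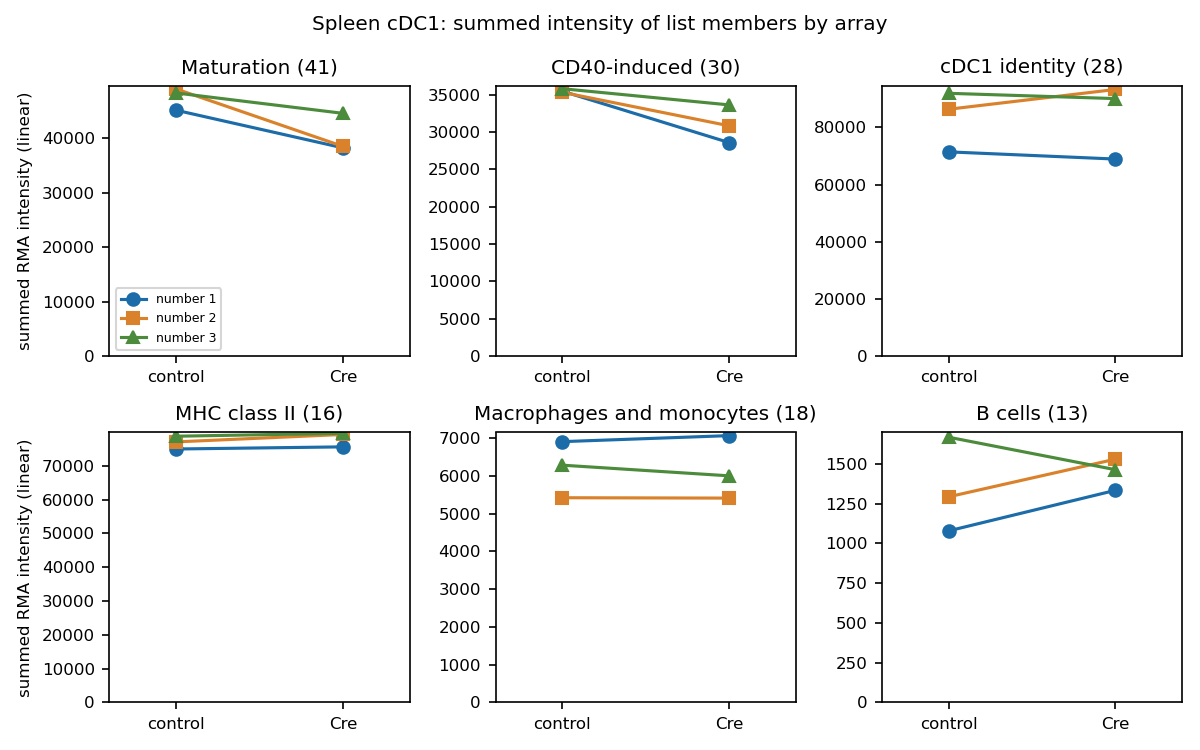
Summed linear RMA intensity (y axis, from 0) of the measured members of 6 lists on the 3 control-labelled and 3 Cre-labelled spleen arrays, with lines joining equal replicate numbers. Maturation and CD40-induced sums are lower on all Cre-labelled arrays, while the sums of cDC1 identity, MHC class II, macrophage and monocyte, and B cell genes overlap between labels.

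The genotype difference was also set against that in lymph node cDC1. The interaction contrast called 0 of 19938 genes (smallest limma adjusted p 0.9996), with 326 genes (1.64%) at an unadjusted p under 0.05. The maturation list, with a median of -0.26 in spleen, had a median of -0.06 in lymph node, with pair medians of -0.09, -0.04 and -0.11. Without both spleen replicate 3 arrays the spleen median was -0.33, while the lymph node value keeps its replicate 3 pair. Of the maturation members, 0 reached an unadjusted limma interaction p under 0.05. The CD40-induced median was -0.16 in spleen and -0.07 in lymph node. Its lymph node pair medians were -0.11, -0.18 and 0.15, so pair 3 ran the other way, as Cd40 did there. The CD40 pathway median was lower in lymph node (-0.13) than in spleen (-0.07). Gadd45b differed by -0.12 in lymph node against -0.44 in spleen (limma interaction, unadjusted p = 0.11, adjusted 0.9996). Ccl22 differed by -0.09 against -0.58 (limma interaction, unadjusted p = 0.22), and Relb by -0.14 against -0.34 (limma interaction, unadjusted p = 0.57).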

How the data were processed

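RNA of 12 sorted cDC1 samples was measured on Affymetrix arrays. The authors deposited 1 intensity per probe set and array, for which the submitters' processing notes name Affymetrix Expression Console and RMA; versions and genome build were not given in the sources used here. Values were linear, and log2 was taken. Of 28853 probe sets, 21789 carried a single symbol (21698 matched to RefSeq by Entrez number), and the brightest was kept per gene, leaving 19938 genes; 5443 were not listed in the annotation and 1621 carried several symbols. These 7064 were fitted apart: 0 were called and 88 had an unadjusted p under 0.05.

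A limma 3.58.1 model (R 4.3.3; Python 3.11.15, matplotlib 3.10.9) was run on log2 values with 4 group means, eBayes with trend, two-sided tests and Benjamini-Hochberg adjustment over all genes. The replicate number was an alternative block, since same-numbered spleen arrays deviated together (r of 0.403 to 0.729). This sets apart number 1 only, since control 3 with Cre 2 (0.557) and control 2 with Cre 3 (0.393) correlated about as well. The labels do not say what equal numbers share, so the pairing of arrays 2 and 3 rests on the numbers alone. Alternatives covered scaling, offset, low genes, probe sets, array weights and each array left out. Precision is limited by the number of arrays. The fit was tested on simulated data.

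Named genes were 25 core genes (Traf3 was not measured), the 10 with the smallest unadjusted p per direction among genes above background whose spleen groups did not overlap, and up to 5 members with the smallest p of each described list. The members, the 27 lists (506 of 570 genes measured) and the rules were chosen with earlier results of these data known, so no list is independent evidence. Hspa1a, Apol7c, Tnf, Tnfaip3, Cd40lg and the single adaptors and subunits were named after their values were seen.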

Additional observations from a re-analysis of the deposited data

Results flagged for a closer look

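For 5 of the 78 genes named by the rule (6.41%), every spleen pair differed in one direction and every lymph node pair in the other, as for 789 of all 19938 genes (3.96%). In limma the interaction (spleen difference minus lymph node difference, log2) was -0.63 for Rcan1, -0.63 for Gm10787, 0.66 for Abcd2, 0.63 for Arv1 and -0.38 for Ier3. The unadjusted limma p ran from 0.0028 (Arv1) to 0.19 (Ier3), and none passed Benjamini-Hochberg adjustment, where the limma adjusted p of Rcan1, Gm10787, Abcd2, Arv1 and Ier3 was 0.9996 each. Rcan1, Gm10787, Abcd2 and Arv1 had been selected for their spleen difference. Ier3, an immediate early gene, was 277, 208 and 230.5 on control-labelled spleen arrays and 234.5, 165 and 183 on Cre-labelled ones.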

How the results depend on the processing

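With array weights 51 spleen genes and 3 interaction genes were called by limma, 12 of the 51 being among the 20 named for the smallest p and 0 in the CD40 pathway, CD40-induced, maturation or tolerance lists, 1 in the Toll-like receptor list (Ticam2) and 1 in the B cell list (Ebf1, higher by 0.32, limma adjusted p = 0.036); the cause was not tested, and every other setting run called 0, the replicate block included (smallest limma adjusted p 0.453, and 0.0631 with the block on spleen arrays alone, where 1579 genes had an unadjusted p under 0.05). Unadjusted counts under 0.05 were 3844 with array weights and 132 among genes above the median level, which tests fewer genes. Without both replicate 2 arrays Cd40 was 0.12, Ccl17 0.20, Fscn1 0.015, Il15 -0.043, Clec9a -0.051, Batf3 -0.0072 and Tlr3 -0.073; Cd70 was 0.0036 with array weights and 0.11 without both replicate 1 arrays, and Ccl17 was 0.0054 after median centring. The CD40-induced median was -0.23 without both replicate 3 arrays. Leaving out 1 array gave -0.70 to 0.0098 for Cd40, -0.33 to 0.07 for Xcr1, -0.19 to -0.053 for the CD40-induced median, -0.17 to 0.0056 for the CD40 pathway median, -0.84 to -0.33 for Il12b, -0.81 to -0.31 for Ccl22, -0.74 to -0.29 for Tnfsf9, -0.20 to 0.10 for Ccl17, -0.26 to 0.13 for Cd70, -0.048 to 0.42 for Il15, -0.51 to 0.032 for Bcl2l1, -0.11 to 0.22 for Clec9a, -0.0063 to 0.30 for Irf8, -0.057 to 0.13 for Batf3 and -0.75 to 0.030 for Egr3. The maturation median ran from -0.33 to -0.16 over all alternatives. The replicate block changed no call.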
